A study of Homo sapiens with 6 samples.

Results

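Gonadotropin and cAMP-PKA signalling genes were examined as a group of 42 named genes among the 58336 gene IDs of the deposited tables. The group was taken as a fixed list of gene symbols: gonadotropin receptors, adenylate cyclases, PKA subunits and inhibitors, phosphodiesterases, CREB factors and their coactivators, EPAC proteins, PKA anchors and RGS2. Of the 42 genes, 32 had enough counts to be tested between genotypes and 10 did not. RNA was sequenced from clones of KGN, an established human granulosa tumour line heterozygous for the C134W change in FOXL2, which encodes a forkhead factor of the ovary. The FOXL2 WT/C134W libraries came from clone 3.11, clone 44b and a library whose name joins them, 3.11-44b. The FOXL2 WT/WT libraries came from clone 44a, clone 4.72 and the joined 4.72-44a, in which the C134W change had been reverted with CRISPR/Cas9. All 6 libraries were made from RNA taken 30 h after transfection, of what is not stated. The comparison of genotypes rests on the 4 single clones, 2 per genotype, because the joined libraries may be mixes of them. Each genotype is therefore modelled by 2 clones of 1 cell line, and only the WT/WT group has editing in its labels, which means that genotype and editing cannot be told apart.

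In granulosa cells of the ovary, follicle-stimulating hormone and luteinising hormone act through FSHR and LHCGR, receptors coupled to the stimulatory G protein. The G protein switches on adenylate cyclases, which make cAMP, and phosphodiesterases degrade it. Cyclic AMP releases the catalytic subunits of protein kinase A (PKA) from their regulatory subunits, and it also acts on the EPAC exchange factors. PKA phosphorylates CREB, which binds the cAMP response element in promoters, while PKI proteins block the free catalytic subunit and AKAP proteins hold PKA in place.

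Summed expected counts ran from 35332727 to 46613068 per library, so 3 counts, the limit that a count of 0 allows, equal between 0.0644 and 0.0849 CPM (counts scaled to library size, covering counting error only). Mitochondrial genes took between 5.12% and 6.71% of the counts. FOXL2 itself had 9.31 and 10.1 CPM in the WT/C134W clones and 7.41 and 4.83 CPM in the WT/WT clones, and such gene counts do not show the allele. Of 13 granulosa cell markers, 3 (FSHR, AMHR2 and GATA4) had 0 counts in all 6 libraries. CYP19A1 was at or below 0.287 CPM, INHA at or below 0.308 CPM and WNT4 at or below 0.154 CPM. The summed level of the 13 was 173 and 250 CPM in the WT/C134W clones, 254 and 283 CPM in the WT/WT clones, with NR5A1, FST, KITLG and AMH detected. Of 5 leukocyte markers, 3 were at 0 throughout, CD3E and ITGAM among them, and the sum of 64.3 to 75.2 CPM was almost all CD68. Summed endothelial markers had 2.22 to 14.9 CPM with CDH5 at 0, and theca cell markers at most 1.51 CPM with INSL3 and LHCGR at 0. Sertoli cell markers summed to 8.43 to 34.4 CPM with DMRT1 at 0. Most of that was SOX9, with 18.1 and 33.2 CPM in the WT/C134W clones and 17.7 and 7.27 CPM in the WT/WT clones. CLDN11 had 4.88 and 1.21 CPM against 0.0907 and 1.16 CPM. The 5 epithelial markers summed to 376 and 1231 CPM in the WT/C134W clones and 1046 and 1478 CPM in the WT/WT clones, mostly KRT18, while EPCAM and CDH1 stayed at or below 0.58 CPM. The 6 fibroblast markers summed to 12230 and 11190 CPM in the WT/C134W clones and to 28870 and 23830 CPM in the WT/WT clones. Each sum was mostly COL1A1. The WT/C134W clones lay below both WT/WT clones for 4 of the 6 (19.7% of all tested genes). PDGFRA and DCN overlapped, PDGFRA at 82.6 and 49.2 CPM in the WT/C134W clones against 60.85 and 38.1 CPM in the WT/WT clones. The part of these markers in the results below was not tested. In bulk RNA, fewer cells expressing a gene and less RNA per cell cannot be told apart.

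Of the 42 members, 4 carry the full cAMP response element, TGACGTCA, in a RefSeq promoter window of 250 bases before to 50 bases after a transcript start (GRCh38.p14). They are shown because they are the members whose own promoter holds the site that the CREB factors of the list are known to bind. The palindromic motif reads the same on both strands. It stands in capitals, and each sequence is printed on the plus strand, which is the coding strand of all 4 genes.
PRKAR1A, chr17:68512341-68512428: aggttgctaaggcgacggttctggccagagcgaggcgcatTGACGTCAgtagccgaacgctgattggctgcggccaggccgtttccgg
CREM, chr10:35195812-35195899: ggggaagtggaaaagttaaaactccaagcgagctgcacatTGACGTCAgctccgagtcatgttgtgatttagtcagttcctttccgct
PDE7B, chr6:135851506-135851593: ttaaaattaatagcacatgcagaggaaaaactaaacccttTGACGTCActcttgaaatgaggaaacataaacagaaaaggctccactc
PDE4A, chr19:10416730-10416777: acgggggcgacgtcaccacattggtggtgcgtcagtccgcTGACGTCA
Promoter windows were held for 35 members, and the other 7 could not be read. By gene, 11.4% of the 35 hold the motif, beside 3.74% of the 10760 tested genes with a window. Of the 96 windows of these members, 6 hold the motif, 6.25%, beside 1.85% of all 35116 windows, and windows of 1 gene can overlap. The CREM element lies at an internal start of the gene. CREM is known for an inducible short product, ICER, made from an internal promoter.

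No member passed the test between genotypes. In edgeR's quasi-likelihood test, 0 of 32 tested members had an adjusted p under 0.05, against 0% of the 16416 genes tested, and the smallest adjusted p among members was 0.48, at PKIA. At an unadjusted p under 0.05 there were 3 of 32 members, 9.38%, beside 7.57% of all tested genes. DESeq2 called 1 member, PKIA, and 1.72% of all tested genes, edgeR with all 6 libraries PKIA and 3.18%, edgeR without the low-count filter PKIA and 2.73%, and limma voom 0 members. PKIA and AKAP12 were the 2 with higher values in the WT/C134W clones (2.88% of all tested genes) and ADCY7 the 1 with lower values (4.7% of all tested genes). Each clone has 1 library of its own, and how many cultures stand behind a library is not stated. Outside the fit with all 6 libraries, these p-values rest on the spread between single-clone libraries. In that spread clone, culture and preparation cannot be told apart. Fold changes are given as WT/C134W over WT/WT. The median log2 fold change over the 32 members was 0.15, and over all tested genes 0.0054. Its size without sign had a median of 0.37 in members and 0.29 in all tested genes.

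Clones did not overlap between genotypes for 14 members, 43.8% of those tested, beside 39.6% of all tested genes. The WT/C134W clones were above the WT/WT clones in 7 (19.9% of all tested genes) and below them in 7 (19.7% of all tested genes). Scaled by library totals alone, 14 of 32 were above and 1 below, against 38.8% and 8.95% of all tested genes, whose median moved to 0.23. On the TPM scale 9 of 29 members were above and 2 below, against 32.1% and 11.4% of all genes with at least 1 TPM in 2 libraries. For 22 members, 68.8%, the 2 clones of 1 genotype differed by more than the genotypes did, as they did for 73.3% of all tested genes.

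**Figure D1:**
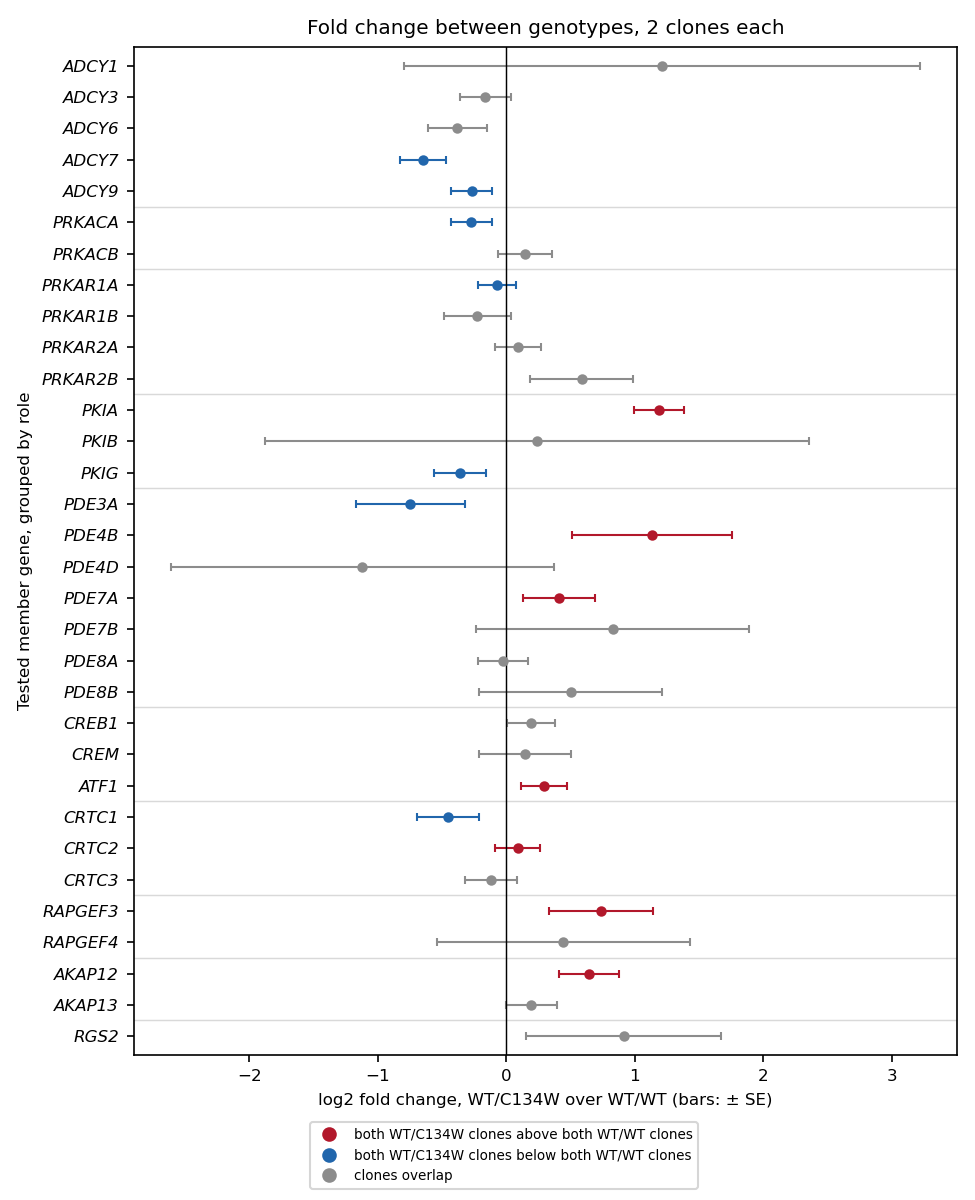
Log2 ratio of WT/C134W to WT/WT for the 32 tested members, with the SE from edgeR's F value as bars and genes grouped by role down the page. Red and blue mark members whose WT/C134W clones lie above or below both WT/WT clones, and grey marks overlap. PKIA, at 1.19, has a short bar clear of 0, whereas ADCY1, PKIB and PDE4D have bars that reach far to both sides of 0.

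The gonadotropin receptors were not detected. FSHR (ENSG00000170820, chromosome 2, 48962157 to 49154537, GRCh38) had 0 counts in all 6 libraries. LHCGR (ENSG00000138039, chromosome 2, 48686775 to 48755730) had 0 counts in all 6 libraries as well. A count of 0 allows up to 0.0849 CPM in the shallowest library, so transcripts below that level could have been missed at this depth. The genotypes could not be compared for either receptor. The hormone side was low too: the shared alpha subunit CGA and the FSHB subunit were at 0 throughout. Of 7 gonadotropin subunit genes, 4 were tested, all of them near-identical CGB copies whose reads can be shared out between copies. CGB5 had 0 and 4.94 CPM in 3.11 and 44b and 4.17 and 0.714 CPM in 44a and 4.72, so the clones overlapped. CGB8 had 0.701 and 3.84 CPM in the WT/C134W clones and 3.38 and 0.345 CPM in the WT/WT clones.

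Other receptors coupled to the stimulatory G protein gave few transcripts. Of 41 such receptors, 21 had 0 counts in all libraries and 12 were tested. None had an unadjusted p under 0.05 in either direction, beside 7.57% of all tested genes. PTGER2, a prostaglandin E2 receptor, had 2.85 and 2.87 CPM in the WT/C134W clones and 1.31 and 1.73 CPM in the WT/WT clones, a log2 fold change of 0.91 ± 0.54 (SE). The clones did not overlap between genotypes, but the error was wide. GPR161, an orphan receptor of the primary cilium, overlapped between genotypes, at 50.1 and 38.3 CPM in the WT/C134W clones against 40.4 and 36.6 CPM in the WT/WT clones.

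Among G protein subunits, 20 of 20 were tested. With an unadjusted p under 0.05 there were 0 on the higher side (2.88% of all tested genes) and 2 on the lower side (4.7%). The clones did not overlap for 4 on the higher side (19.9% of all tested genes) and 7 on the lower side (19.7%). GNAS, which encodes the stimulatory alpha subunit, had 552 and 489 CPM in the WT/C134W clones and 716 and 720 CPM in the WT/WT clones, with 503 and 710 CPM in the joined libraries. Its log2 fold change was -0.46 ± 0.17 (SE, edgeR adjusted p = 0.649), and the clones did not overlap. GNAI2, an inhibitory alpha subunit, had 409 and 379 CPM against 598 and 482 CPM, and GNAI3, another, had 120 and 109 CPM against 95.7 and 90.7 CPM. Receptor kinases and arrestins were split as well. Of the 7, 1 was higher (2.88% of all tested genes) and 1 lower (4.7%) at an unadjusted p under 0.05. ARRB2, an arrestin that uncouples receptors, had 18.1 and 14.3 CPM in the WT/C134W clones and 10.3 and 10.5 CPM in the WT/WT clones. GRK2, a receptor kinase, had 54.1 and 58.7 CPM against 71.7 and 73.8 CPM, and GRK5 overlapped at 13.5 and 19.96 CPM against 9.50 and 15.3 CPM.

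RGS2, which shortens G protein signals, was low and varied between clones. It had 7.28 and 3.51 CPM in 3.11 and 44b, and 1.16 and 4.56 CPM in 44a and 4.72, with 5.32 CPM in 3.11-44b and 1.87 CPM in 4.72-44a. The single clones overlapped, 44b lying below 4.72. The log2 fold change of 0.91 ± 0.76 (SE, edgeR adjusted p = 0.858) was 0.22 without 44a, 0.29 without 3.11 and 2.22 without 4.72.

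Adenylate cyclase transcripts came from 4 of the 9 genes. ADCY3, ADCY6, ADCY7 and ADCY9 made up nearly all of the summed level of the family, which was 62.4 and 86.8 TPM in the WT/C134W clones and 90.8 and 78.9 TPM in the WT/WT clones (TPM is scaled by gene length, so genes can be compared). The sums overlapped between genotypes. ADCY3 held the largest share in 4 of the 6 libraries, between 30.7% and 51% over all libraries. ADCY6, which calcium inhibits, held 16% to 37.1%. ADCY1, known from neurons and stimulated by calcium, was tested but held at most 0.881%. ADCY8 had 0 counts throughout, ADCY2 at most 2 counts, ADCY4 at most 8 and ADCY5 at most 16 in a library.

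ADCY7, an isoform known from blood cells, had 20.1 and 21.5 CPM in 3.11 and 44b, and 34.8 and 30.3 CPM in 44a and 4.72. The joined libraries had 21.7 CPM (3.11-44b) and 27.7 CPM (4.72-44a). All WT/C134W libraries lay below all WT/WT libraries on this scale. The log2 fold change was -0.65 ± 0.18 (SE, edgeR adjusted p = 0.593, unadjusted 0.0119), and it lay between -0.74 and -0.56 with each clone left out. On the TPM scale the clones overlapped, at 6.74 and 18.6 TPM against 29.9 and 14.9 TPM, with transcript lengths that the authors' tool put anywhere from 1754 to 4799 bases. ADCY7 (chromosome 16, 50246137 to 50318135) shares exon sequence with BRD7 on the opposite strand, and the kit marks strand but the counting is not stated to use it. The same holds for ADCY3 with CENPO, PKIG with ADA, PDE3A with AC129102.1, PDE7A with MTFR1, PRKAR1B with DNAAF5 and PDE8B with WDR41. Other tested members that share exon sequence with an opposite-strand gene are ADCY6, PRKAR2A, PDE4D, PDE7B, CREB1, CREM, CRTC3, RAPGEF3, RAPGEF4 and AKAP13.

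ADCY3 had 37.7 and 40.8 CPM in the WT/C134W clones and 50.3 and 37.5 CPM in the WT/WT clones, overlapping between genotypes. Its log2 fold change, -0.16 ± 0.20 (SE), became 0.06 with library totals as the only scaling. ADCY6 (-0.38 ± 0.23) overlapped as well, while ADCY9 (-0.27 ± 0.16) did not, with 38.6 and 43.4 CPM against 49.5 and 49.4 CPM.

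**Figure D2:**
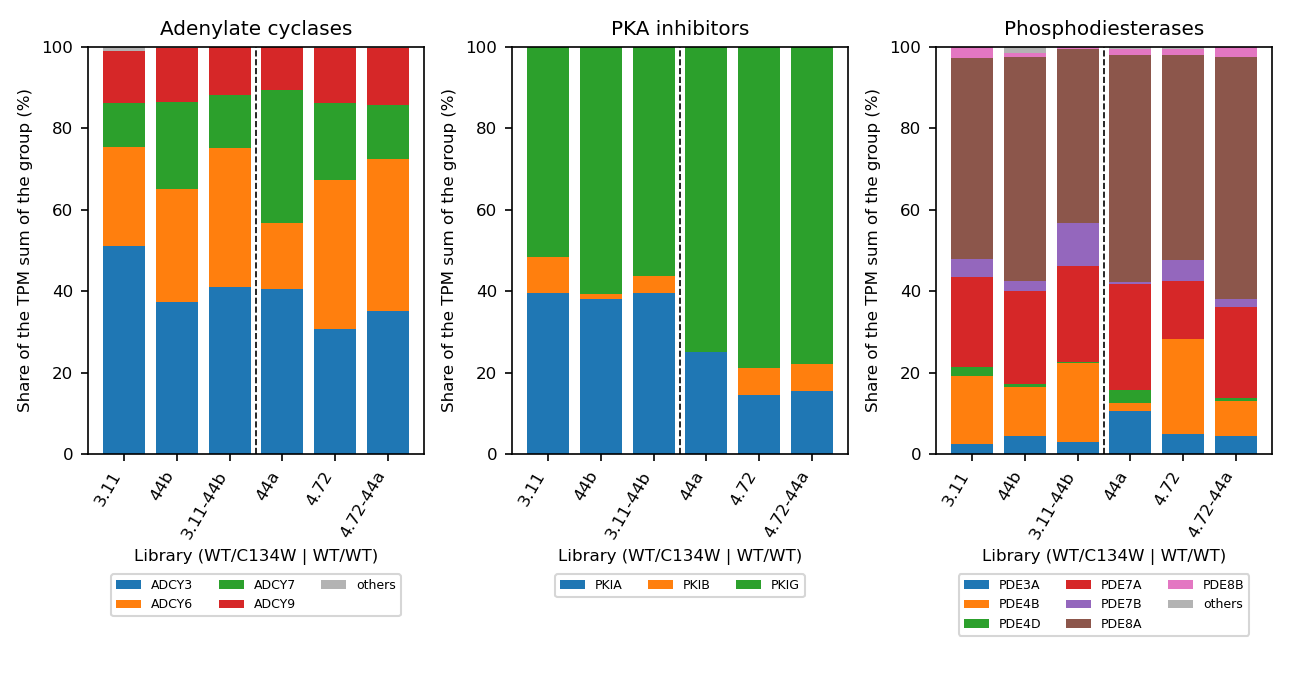
Share of each gene in the TPM sum of the adenylate cyclases, the PKA inhibitors and the phosphodiesterases in each library, WT/C134W libraries left of the dashed line and WT/WT libraries right of it. PKIA takes 38% to 39.6% of the inhibitor transcripts in the 3 WT/C134W libraries and 14.6% to 25.1% in the 3 WT/WT libraries.

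Of the roles among the 42 members, the PKA regulatory and catalytic subunits had the highest summed TPM in all 6 libraries. The regulatory subunits summed to 288 and 353 TPM in the WT/C134W clones and 332 and 296 TPM in the WT/WT clones, and the catalytic subunits to 129 and 111 TPM against 118 and 127 TPM. Both sums overlapped between genotypes. The ratio of regulatory to catalytic transcripts was 2.24 and 3.18 in the WT/C134W clones and 2.82 and 2.33 in the WT/WT clones.

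PRKAR1A, the widely expressed type I regulatory subunit and the most abundant member on the TPM scale, held 77.6% to 82.3% of the regulatory transcripts. It had 256.5 and 269 CPM in the WT/C134W clones and 280 and 272 CPM in the WT/WT clones. The clones did not overlap, but the log2 fold change was -0.07 ± 0.15 (SE) and became 0.15 with library totals alone. PRKAR2B, a type II subunit known from the nervous system, fat and the ovary, had 11.3 and 6.81 CPM against 7.16 and 4.85 CPM and overlapped. PRKAR1B and PRKAR2A overlapped too, with log2 fold changes of -0.23 and 0.09.

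PRKACA, the main catalytic subunit, held 82.9% to 86.4% of the catalytic transcripts. It had 145 and 126 CPM in 3.11 and 44b, and 157 and 170 CPM in 44a and 4.72, with 135 and 165 CPM in the joined libraries. The clones did not overlap, and the log2 fold change was -0.27 ± 0.16 (SE, edgeR adjusted p = 0.758). PRKACB, the second catalytic gene, overlapped at 57.8 and 46.5 CPM against 40.8 and 53.5 CPM.

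PKIA, which encodes the alpha form of the PKA inhibitor, had the largest separation of the members. It had 29.1 and 29.8 CPM in 3.11 and 44b, and 14.1 and 11.75 CPM in 44a and 4.72. The joined libraries had 34.9 CPM (3.11-44b) and 12.5 CPM (4.72-44a). All 3 WT/C134W libraries were more than 2-fold above all 3 WT/WT libraries. The mean was 29.5 ± 0.496 CPM in the WT/C134W clones and 12.9 ± 1.64 CPM in the WT/WT clones (SD, n = 2 clones each), a log2 fold change of 1.19 ± 0.19 (SE).

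For PKIA, edgeR's test gave an adjusted p = 0.48 (unadjusted 0.000985), so the gene did not pass over all genes. DESeq2 on the same 4 clones gave an adjusted p of 0.000947, edgeR without the low-count filter 0.000584 and edgeR with all 6 libraries 0.0061, while limma voom made no call. The fit with all 6 libraries counts the joined ones as further clones. Over the alternatives tried, the log2 fold change lay between 1.07 and 1.41 and the adjusted p between 0.000584 and 0.999. PKIA (ENSG00000171033, chromosome 8, 78516139 to 78605267, plus strand) shares no exon sequence with a gene on the opposite strand in GENCODE. The difference at PKIA was known from earlier results on the same clones, so it is no separate support.

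The other 2 inhibitors did not share this pattern. PKIG, the gamma form and the most abundant inhibitor on the TPM scale, had 19.6 and 22.95 CPM in the WT/C134W clones and 24.4 and 30.1 CPM in the WT/WT clones, a log2 fold change of -0.36 ± 0.20 (SE, edgeR adjusted p = 0.757). PKIB, the beta form, had 3.05 and 0.573 CPM in 3.11 and 44b, and 0 and 3.06 CPM in 44a and 4.72, so clones of the same genotype differed most. The ratio of PKIA to PKIG transcripts was 0.769 and 0.626 in the WT/C134W clones and 0.336 and 0.184 in the WT/WT clones, and 0.704 and 0.198 in the joined libraries. On the TPM scale 32.1% of all genes with at least 1 TPM in 2 libraries lay above in the WT/C134W clones and 11.4% below. All inhibitors together gave 57.6 and 54.4 TPM in the WT/C134W clones and 43.6 and 49.7 TPM in the WT/WT clones. Set against the catalytic transcripts, that is a ratio of 0.447 and 0.49 in the WT/C134W clones and 0.371 and 0.391 in the WT/WT clones. An exact two-sided permutation test over 2 against 2 clones cannot pass the threshold, and the p of each of these non-overlapping sums and ratios was the smallest that it allows.

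**Figure D3:**
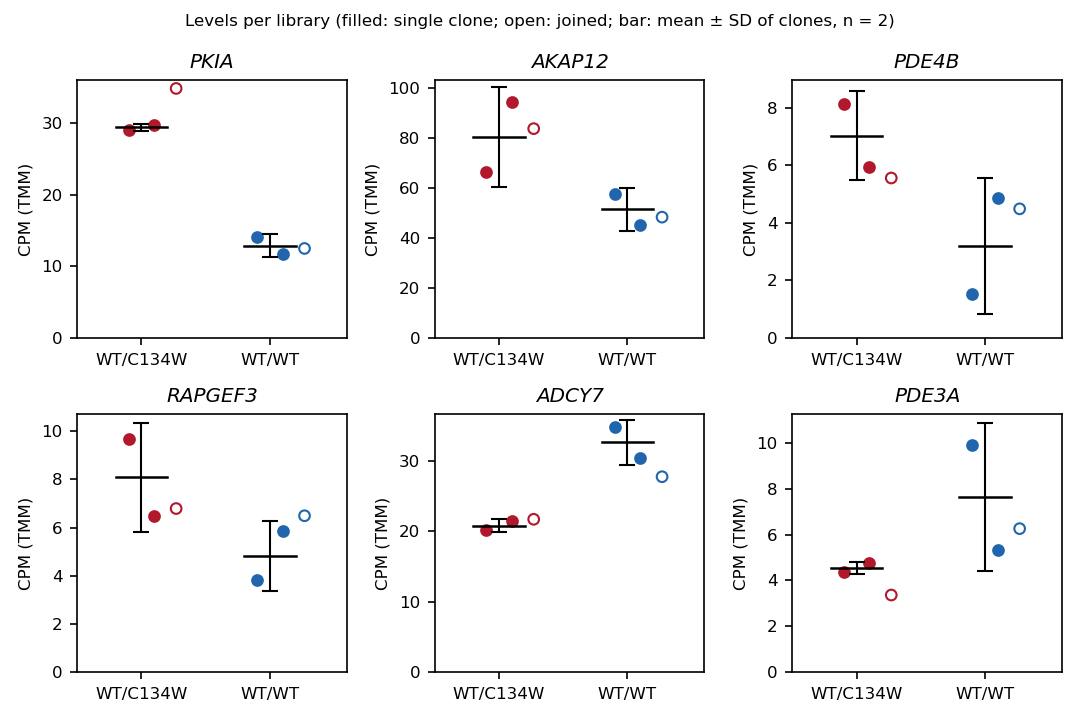
TMM-scaled CPM of 6 members in each library, WT/C134W left and WT/WT right in each panel, with filled points for single clones, open points for joined libraries, and bars for the mean ± SD of the 2 single clones. In PKIA the WT/C134W points lie between 29.1 and 34.9 CPM and the WT/WT points between 11.75 and 14.1 CPM, whereas in RAPGEF3 the WT/WT joined library, at 6.49 CPM, lies level with the lower WT/C134W clone.

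AKAP12, a large scaffold that anchors PKA near the plasma membrane, was the second member with higher values. It had 66.3 and 94.6 CPM in 3.11 and 44b, and 57.5 and 45.4 CPM in 44a and 4.72, with 83.8 CPM in 3.11-44b and 48.4 CPM in 4.72-44a. All WT/C134W libraries lay above all WT/WT libraries. The log2 fold change was 0.65 ± 0.23 (SE, edgeR adjusted p = 0.647, unadjusted 0.0337). It was 0.36 without 44b, 0.49 without 4.72 and 0.88 without 3.11. AKAP12 (chromosome 6, 151239999 to 151358557, plus strand) was also clear of overlap on the TPM scale, with 16.3 and 22.1 TPM against 12.3 and 9.68 TPM. AKAP13, another PKA anchor, overlapped at 40.4 and 54.2 CPM in the WT/C134W clones against 43.1 and 39.5 CPM in the WT/WT clones.

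Of 17 other A-kinase anchors, 14 were tested. Among these, 1 was higher (2.88% of all tested genes) and 0 lower (4.7%) at an unadjusted p under 0.05. AKAP7, a short membrane-bound anchor, had 11.2 and 8.71 CPM in the WT/C134W clones and 5.69 and 3.597 CPM in the WT/WT clones, a log2 fold change of 1.10 ± 0.38 (SE, edgeR adjusted p = 0.647). AKAP5, an anchor known from synapses, had 2.76 and 2.999 CPM against 6.46 and 4.73 CPM, and AKAP11 had 64.2 and 55.7 CPM against 49.5 and 47.0 CPM. The clones did not overlap for 10 of the 14, with 7 above and 3 below, beside 19.9% and 19.7% of all tested genes.

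Among the 11 phosphodiesterases of the list, PDE8A, a cAMP-specific enzyme of high affinity, held the largest share in every library, 42.6% to 59.6% of their summed TPM. The 11 phosphodiesterases together gave 38.9 and 31.2 TPM in the WT/C134W clones and 26.8 and 29.9 TPM in the WT/WT clones. These sums did not overlap, and the joined libraries gave 29.02 and 28.02 TPM. On the TPM scale 32.1% of all genes with at least 1 TPM in 2 libraries lay above and 11.4% below. PDE8A itself had 34.9 and 26.8 CPM in the WT/C134W clones and 31.5 and 31.2 CPM in the WT/WT clones. The clones overlapped, with a log2 fold change of -0.03 ± 0.20 (SE) that was 0.20 with library totals alone. PDE4C and PDE10A had 0 counts in all 6 libraries, PDE4A had 3 counts in 1 library, and PDE3B had at most 18 counts in a library, so these 4 were not tested.

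PDE4B, a cAMP-specific enzyme that cAMP itself is known to induce, had 8.12 and 5.93 CPM in 3.11 and 44b, and 1.52 and 4.88 CPM in 44a and 4.72. The joined libraries had 5.56 CPM (3.11-44b) and 4.49 CPM (4.72-44a). The genotypes did not overlap on this scale, and 44a stood lowest. The log2 fold change of 1.13 ± 0.62 (SE, edgeR adjusted p = 0.747) was 0.51 without 44a and 2.21 without 4.72. On the TPM scale 4.72 lay above both WT/C134W clones, at 6.96 TPM against 6.43 and 3.79 TPM, so the genotypes overlapped there.

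PDE3A, an enzyme that cGMP inhibits and that is known from oocytes, platelets and heart, had 4.35 and 4.74 CPM in 3.11 and 44b, and 9.90 and 5.35 CPM in 44a and 4.72. The joined libraries had 3.37 and 6.26 CPM. The clones did not overlap, and 44a stood highest. The log2 fold change of -0.75 ± 0.42 (SE, edgeR adjusted p = 0.757) was -0.25 without 44a and -1.12 without 4.72.

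The other tested members of the family had small or uncertain differences. PDE7A, a cAMP-specific enzyme, had 15.0 and 12.4 CPM in the WT/C134W clones and 11.9 and 8.67 CPM in the WT/WT clones, without overlap. PDE7B, with the cAMP response element shown above, had 5.85 and 1.19 CPM against 0.635 and 3.33 CPM, and the 2 clones of each genotype differed more than the genotypes. PDE8B overlapped at 3.89 and 1.257 CPM against 1.56 and 2.07 CPM. PDE4D, an enzyme of many isoforms, stayed below 1 CPM in all 6 libraries.

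Another 5 phosphodiesterases that act on cAMP are not in those sums. PDE1C, a calmodulin-dependent enzyme, had 155 and 233 CPM in the WT/C134W clones and 178 and 350 CPM in the WT/WT clones, overlapping. PDE1B, a second enzyme of that kind, had 25.4 CPM in 4.72 and 15.8 CPM in 4.72-44a, and between 1.57 and 2.47 CPM in the other single clones and 3.11-44b. PDE1A had 5.25 and 0.728 CPM against 0.476 and 3.75 CPM. All 5 genes were tested, and 0 were higher (2.88% of all tested genes) and 1 lower (4.7%) at an unadjusted p under 0.05. That gene, PDE11A, was named after its values were seen, at no more than 1.55 CPM.

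**Figure D4:**
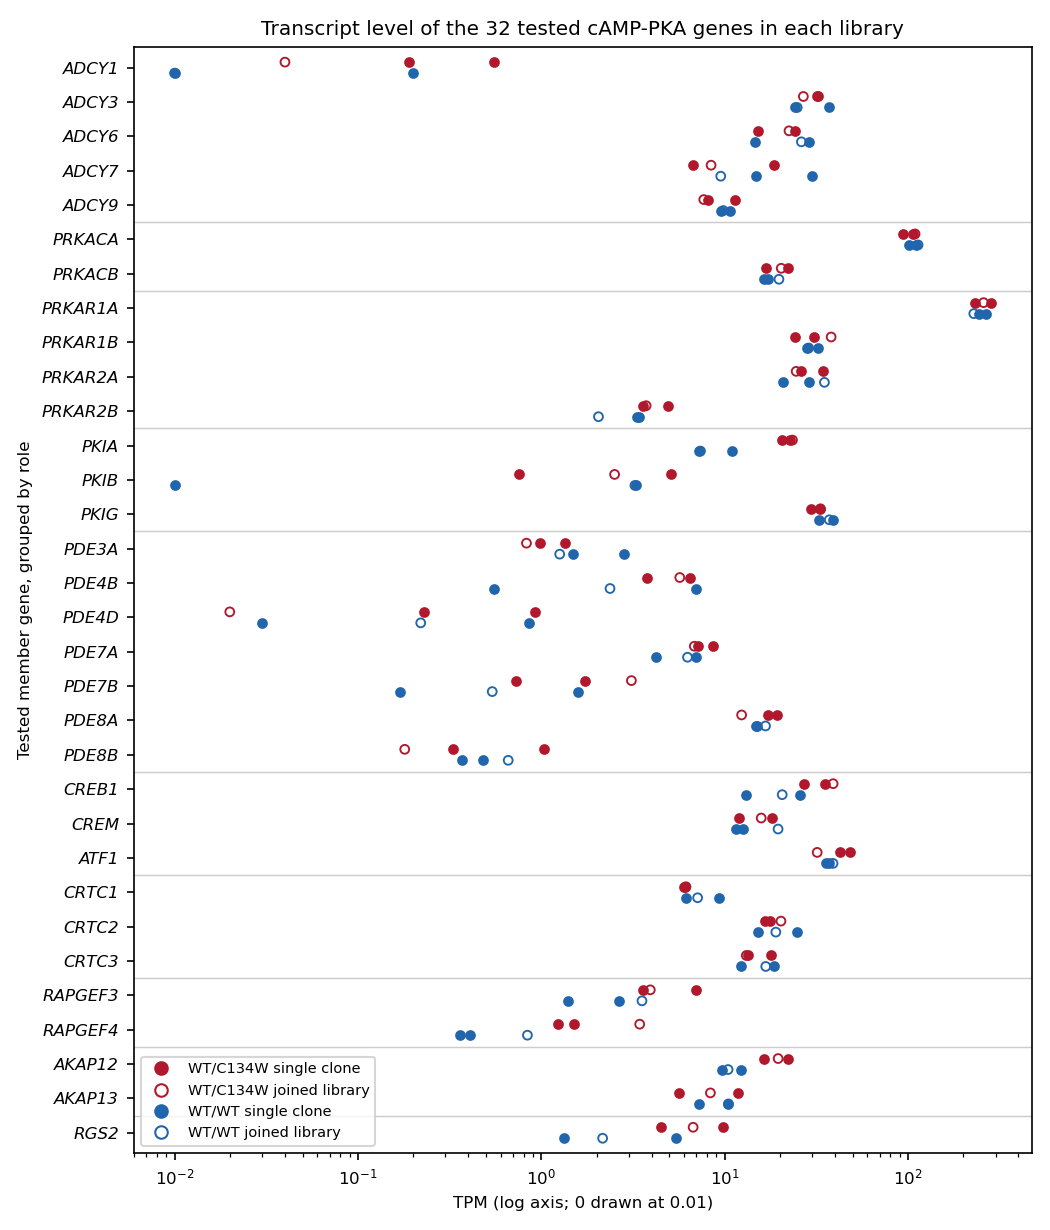
TPM of the 32 tested members in each library on a log axis (0 drawn at 0.01), with filled points for single clones and open points for joined libraries, genes grouped by role, with WT/C134W points above WT/WT points in each row. PRKAR1A and PRKACA lie highest, between 94.2 and 284 TPM, and the genotypes are fully apart for PKIA, AKAP12 and a few others, while PKIB, PDE4B, PDE4D and PDE7B scatter by 10-fold or more.

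The CREB family factors had log2 fold changes between 0.15 and 0.29, none with an unadjusted p under 0.05. ATF1, a CREB relative and the most abundant of the 3 on the TPM scale, had 25.7 and 23.1 CPM in 3.11 and 44b, and 19.7 and 20.1 CPM in 44a and 4.72, with 22.7 and 21.7 CPM in the joined libraries. Its clones did not overlap, and the log2 fold change was 0.29 ± 0.18 (SE, edgeR adjusted p = 0.766). CREB1, the founding member, had 43.0 and 36.0 CPM in the WT/C134W clones and 37.4 and 31.7 CPM in the WT/WT clones, overlapping. CREM, which gives activators and repressors by alternative starts and splicing, had 5.66 and 8.58 CPM against 6.07 and 6.78 CPM. Summed over the 3 factors, the level was 95.5 and 87.6 TPM in the WT/C134W clones and 73.1 and 62.9 TPM in the WT/WT clones. These sums did not overlap, and the joined libraries had 86.8 and 79.1 TPM. On the TPM scale 32.1% of all genes with at least 1 TPM in 2 libraries lay above and 11.4% below. The estimated length of CREB1 was 2049 and 2142 bases in the WT/C134W clones and 2149 and 3414 bases in the WT/WT clones. Of the members with the cAMP response element that could be tested, PRKAR1A, CREM and PDE7B had log2 fold changes of -0.07 ± 0.15, 0.15 ± 0.36 and 0.83 ± 1.06 (SE), none larger than its error.

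The CREB coactivators of the CRTC family enter the nucleus when cAMP rises. CRTC2, the most abundant of them on the TPM scale, had 24.9 and 23.1 CPM in the WT/C134W clones and 22.7 and 22.35 CPM in the WT/WT clones. The clones did not overlap, but the log2 fold change of 0.09 ± 0.17 (SE) became -0.17 on the log2(TPM + 1) scale. CRTC1, known from neurons, had 11.1 and 12.6 CPM against 18.2 and 14.2 CPM, and it was the 1 non-overlapping member whose joined libraries went the other way, with 15.1 CPM in 3.11-44b and 12.4 CPM in 4.72-44a. CRTC3 overlapped at 37.2 and 27.4 CPM against 35.1 and 34.9 CPM. Another 10 CREB partners and salt-inducible kinases were all tested. Of them, 0 were higher (2.88% of all tested genes) and 1 lower (4.7%) at an unadjusted p under 0.05. That gene was CREB3L1, a membrane-bound factor of secretory and matrix-producing cells, with 175 and 245 CPM in the WT/C134W clones and 447 and 280 CPM in the WT/WT clones. CREB3 had 52.4 and 94.1 CPM against 108 and 113 CPM, and ATF2 had 51.3 and 35.3 CPM against 31.2 and 28.3 CPM, both without overlap.

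RAPGEF3, which encodes EPAC1, a cAMP-activated exchange factor for the small GTPase Rap, had 9.67 and 6.48 CPM in 3.11 and 44b, and 3.81 and 5.86 CPM in 44a and 4.72. The joined libraries were almost level, at 6.79 CPM (3.11-44b) and 6.49 CPM (4.72-44a). The single clones did not overlap. The log2 fold change of 0.74 ± 0.41 (SE, edgeR adjusted p = 0.747) was 0.42 without 3.11 and 0.44 without 44a. It was 0.99 without 44b and 1.08 without 4.72. RAPGEF3 shares exon sequence with SLC48A1 on the opposite strand, with the same limit as ADCY7. RAPGEF4, which encodes EPAC2, overlapped at 1.18 and 0.684 CPM against 0.385 and 0.986 CPM. On the TPM scale RAPGEF4 did not overlap, at 1.24 and 1.5 TPM in the WT/C134W clones and 0.36 and 0.41 TPM in the WT/WT clones. Both EPAC genes together gave 8.25 and 5.07 TPM in the WT/C134W clones and 1.76 and 3.06 TPM in the WT/WT clones. The log2 ratio of these sums was 1.47 without overlap, and the joined libraries gave 7.37 and 4.38 TPM. Of all genes with at least 1 TPM in 2 libraries, 32.1% lay above in the WT/C134W clones and 11.4% below on that scale. In counts the log2 fold changes were 0.74 for RAPGEF3 and 0.44 ± 0.98 (SE) for RAPGEF4. TPM also rests on estimated lengths, for RAPGEF3 2310 and 2868 bases in the WT/C134W clones and 3902 and 3145 bases in the WT/WT clones. RAPGEF4 had 49 and 31 counts against 17 and 40, so its lengths rest on few counts. The part of length in the ratio was not tested. Of 10 other genes around Rap, 8 were tested. Among those 8, 1 was higher (2.88% of all tested genes) and 0 lower (4.7%) at an unadjusted p under 0.05. RAPGEF2, a Rap exchange factor, had 60.7 and 68.0 CPM in the WT/C134W clones and 49.0 and 47.0 CPM in the WT/WT clones, a log2 fold change of 0.42 ± 0.16 (SE, edgeR adjusted p = 0.65). RAP1A had 41.4 and 41.7 CPM against 34.9 and 33.2 CPM, and RAPGEF6 31.9 and 23.3 CPM against 16.7 and 21.0 CPM.

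Of 13 other cAMP effectors and transporters, 6 were tested. Among those 6, 1 was higher (2.88% of all tested genes) and 0 lower (4.7%) at an unadjusted p under 0.05. That gene was CNGA3, a channel subunit known from cone photoreceptors, whose mean was under 2 CPM and which was named after its values were seen. It had 4.28 and 0.684 CPM in 3.11 and 44b, and 0.476 and 0.123 CPM in 44a and 4.72. BVES, POPDC3 and HCN3, which bind cAMP, overlapped between genotypes, with log2 fold changes of -0.09, 0.18 and 0.24.

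Among genes known to respond to cAMP, none passed over all genes. Of 29 listed, 23 were tested, and 0 were higher and 5 lower at an unadjusted p under 0.05, beside 2.88% and 4.7% of all tested genes. The list's median log2 fold change was -0.77, with 6 values above 0 and 17 below. The WT/C134W clones lay below both WT/WT clones for 8 of the 23 (19.7% of all tested genes). They lay above both for 2 (19.9% of all tested genes), and the clones overlapped for the rest. The list was written with earlier results on EGR1, JUNB and INHBA known, and many of its genes respond to other signals as well, so its direction is not independent evidence. EGR1, a zinc finger factor made within minutes of a stimulus, had 15.3 and 18.7 CPM in the WT/C134W clones and 48.7 and 76.4 CPM in the WT/WT clones. JUNB, an AP-1 subunit, had 23.2 and 26.6 CPM against 118 and 66.3 CPM. CITED2, a CBP-binding regulator, had 132 and 221 CPM against 295 and 413 CPM, a log2 fold change of -1.003 ± 0.31 (SE, edgeR adjusted p = 0.633).

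NR4A1, an orphan nuclear receptor induced by gonadotropins in granulosa cells, was named after its values were seen, as were INHBA, STAR, FOS and the steroid enzymes given here. It had 1.72 and 5.80 CPM in 3.11 and 44b, and 15.4 and 8.50 CPM in 44a and 4.72, with 5.45 and 13.9 CPM in the joined libraries. STAR, the cholesterol carrier that starts steroid synthesis, had 4.57 and 6.06 CPM in the WT/C134W clones and 3.08 and 2.07 CPM in the WT/WT clones. NR4A1 was the lower and STAR the higher in the WT/C134W clones, neither with overlap and neither past the threshold after adjustment (edgeR adjusted p = 0.658 and 0.685). INHBA, the beta A chain of activin and inhibin, had 66.9 and 120 CPM against 202 and 155 CPM. CYP19A1, CYP11A1 and HSD3B2, enzymes of steroid synthesis, stayed at or below 0.287 CPM and were not tested. FOS, a classic early target of CREB, had 0.943 and 0.97 CPM in the WT/C134W clones and 0.793 and 2.46 CPM in the WT/WT clones.

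**Figure D5:**
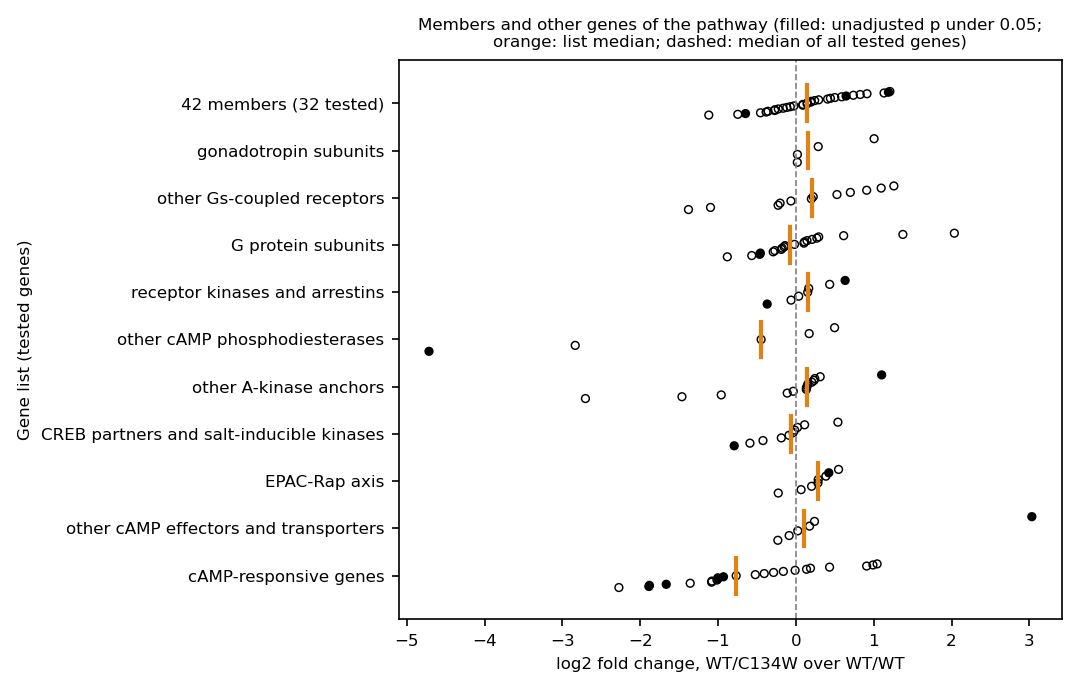
Log2 ratio of WT/C134W to WT/WT for the tested members and of the tested genes in 10 other lists of the pathway, with filled points for an unadjusted p under 0.05 and an orange bar at each list's median. The cAMP-responsive genes have a median of -0.77, and the 32 members one of 0.15, close to the dashed line at 0.0054 for all tested genes.

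Over the 10 lists, 109 of 159 genes were tested, and 14 of these, 12.8%, had an unadjusted p under 0.05 beside 7.57% of all tested genes. They were 4 higher (2.88% of all tested genes) and 10 lower (4.7% of all tested genes). The cAMP-responsive genes gave 5 of the 14. That list was written with earlier results on EGR1, JUNB and INHBA known, so the share is not independent evidence. None had an adjusted p under 0.05.

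The joined libraries gave the same order as the single clones for 13 of the 14 members without overlap, beside 79.7% of all such genes. The level of 3.11-44b lay between those of 3.11 and 44b for 17 of 32 members (49% of all tested genes), and that of 4.72-44a between 4.72 and 44a for 15 of 32 (49.3% of all tested genes). With 1 joined library per genotype, no test was made of them.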

How the data were processed

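For each gene and each of the 6 libraries, the files deposited by the authors give RSEM's expected count, TPM and FPKM. The deposited expected count is not scaled. TPM, per the file headers, is corrected for effective length and has an equal total in every library. FPKM, per the file headers scaled by length and mapped fragments, served as an alternative. The mean transcript length in the deposited tables is weighted by RSEM's isoform estimates. The submitters' processing notes list RSEM 1.3.1, STAR 2.7.6a, DESeq2 1.26.0, Picard 2.8.1 and R 3.6.3 without roles, and the mouse build GRCm38, although the gene IDs are human. Neither the human build nor the annotation release or strand setting is stated in the sources used here. Per the labels' protocols, a stranded mRNA kit was used on RNA with RIN above 8.8.

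Symbols and coordinates (GRCh38) came from GENCODE release 29, which holds 58216 of the 58336 gene IDs and all 42 members. Expected counts were rounded. Genes of the 4 single-clone libraries passed filterByExpr, had TMM scaling and entered edgeR 4.0.16's robust quasi-likelihood test (R 4.3.3), p-values being adjusted by Benjamini-Hochberg over all 16416 tested genes and a threshold of 0.05. The fitting code was tested on simulated data. Each SE was taken as the absolute log2 fold change over the root of its F value. CPM values are TMM-scaled over the 6 libraries. Alternatives used DESeq2 1.42.0 and limma 3.58.1. Members and lists were chosen with earlier results of these data known. Full values are given for FSHR, LHCGR, the most abundant member of each role, and members with an unadjusted p under 0.05, or with no overlap and a log2 fold change of at least 0.5 in size. Up to 3 genes with the smallest p and a mean of at least 2 CPM were named per pathway list, and some items are not reported here. Promoter sequences are from RefSeq (GRCh38.p14).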

Additional observations from a re-analysis of the deposited data

How the results depend on the processing

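Depth limits the members under about 1 CPM, and 2 clones per genotype limit all of them. The count of all genes called, 0 in edgeR's test, was 283 with DESeq2, 511 with all 6 libraries, 664 without the low-count filter, 1 on log2(TPM + 0.1) and 5 with the replicate block that paired 44a with 44b, a pairing the labels do not give. Members called, 0, became 1 (PKIA) with DESeq2, with all 6 libraries and without the low-count filter. Each clone left out in turn gave 11 to 17 higher and 10 to 11 lower members without overlap, where 1 clone against 2 overlaps less by construction. Lower members at an unadjusted p under 0.05, 1, became 6 with all 6 libraries and 0 with library totals alone and in all 3 TPM fits. The fit with all 6 libraries counts the joined ones as further clones, and it called 3.18% of all its genes after adjustment. The share of all genes at an unadjusted p under 0.05 was not taken in these alternatives. Members without overlap, 7 higher and 7 lower, became 14 and 1 with library totals alone, and the lower ones 2 on TPM. The members' median, 0.15, was -0.033 with at least 10 CPM (20 members), 0.043 with all 6 libraries, 0.37 with library totals, 0.28 on log2(TPM + 0.1), 0.25 on log2(TPM + 1), 0.17 on that scale unfiltered, 0.11 without the low-count filter, and -0.011 to 0.15 with each clone left out. The cause was not tested.

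Library totals alone turned ADCY3 (0.055), PRKAR1A (0.15) and PDE8A (0.20). The log2(TPM + 1) scale turned the same genes (0.10, 0.014 and 0.26, filtered or not) and CRTC2 (-0.17), as did log2(TPM + 0.1), with 0.10, 0.014, 0.28 and -0.18. With each clone left out, PDE8A ran from -0.23 to 0.15 (without 44b) and ADCY3 from -0.36 to 0.045 (without 44a). For the log2 ratio of summed TPM, leaving out each clone gave -0.44 to 0.034 in adenylate cyclases (-0.18 with all 4), -0.14 to 0.075 in catalytic subunits (-0.03, and 0.035 on FPKM), -0.12 to 0.17 in regulatory subunits (0.03) and -0.44 to 0.20 in CREB coactivators (-0.16). With all 6 libraries PKIB turned to -0.14 and PDE8B to -0.13, and members outside the naming rule were not followed through the other alternatives.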

Other observations

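Transcript length, which the deposited tables give as a mean over each gene's isoforms, differed by more than 2-fold among the 6 libraries for 7 of the 32 tested members. AKAP12 was among the stable ones, at 6470 and 6555 bases in 3.11 and 44b against 6572 and 6486 bases in 44a and 4.72. PDE4D, whose long and short isoforms start at different promoters, ran from 494 to 7690 bases at under 1 CPM, so its few counts were assigned to different transcripts in different libraries. PDE4B had 2128 and 2499 bases in the WT/C134W clones and 3982 and 1103 bases in the WT/WT clones. PKIA had 2147 and 2316 bases against 1925 and 2353 bases. For 6 of the 32 members the lengths did not overlap between genotypes. The share over all tested genes was not taken for this count or for the 2-fold count. Neither count can therefore be read as a trait of the members. These lengths rest on isoform estimates and were not tested.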
